A study of Mus musculus with 6 samples.

Results

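The transcripts described here are 37 genes of the ATF4 response, of serine and one-carbon metabolism and of amino acid synthesis and transport. They were chosen by symbol, as a list of named genes, and all 37 were among the 16000 genes of the authors' tables. The choice was made with earlier results of these data known, so shares of the 37 set beside all genes are a description. RNA was sequenced from NIH3T3 cells, an established line of mouse embryonic fibroblasts, held under serum starvation. The 6 libraries were 3 of wild type (genotype WT) and 3 labelled Rai16 KO, and both groups received the same starvation. The labels name no other allele, agent or duration, and do not say how the RAI16 lesion was made or whether the knockout is 1 clone. They also do not say whether libraries came from separate cultures, so the p-values may reflect technical spread alone.

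ATF4 is a transcription factor of the integrated stress response. In this response kinases such as GCN2, PERK and HRI phosphorylate the translation factor eIF2, which slows protein synthesis in general while the ATF4 messenger is translated more. ATF4 then pairs with other leucine-zipper proteins at composite C/EBP-ATF elements and switches on genes that make, import and charge amino acids. In fibroblasts it is known for supplying serine and glycine carbon to nucleotide and matrix synthesis.

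Total counts ran from 16741607 to 17482451 in wild type and from 17805417 to 18368760 in the libraries labelled knockout. The targeted gene, listed as Fam160b2, held 440, 375 and 411 counts in wild-type replicates 1, 2 and 3 and 410, 394 and 390 in the knockout libraries (log2 fold change −0.12 ± 0.075, adjusted p = 0.184 in edgeR). A count over the whole gene does not check a small lesion, so the group names below rest on the labels. At an adjusted p under 0.05 in edgeR, the fibroblast markers Col1a1, Col1a2, Col5a1, Vim and Thy1 were higher in knockout. Fn1 was lower (means of 1658 FPKM in wild type and 1098 FPKM in knockout), as was Pdgfrb (83.3 and 73.3 FPKM). Together the fibroblast markers summed to 5630 to 5770 FPKM in wild type and 6219 to 6453 FPKM in knockout, although Fap had 1 and 2 counts. Summed markers of other cells were low beside these but higher in knockout: epithelial ones summed to 0.610 to 0.883 FPKM in wild type and 2.18 to 2.80 in knockout, leukocyte ones to 3.003 to 3.29 and 3.90 to 4.59, and endothelial ones to 0.317 to 0.423 and 0.680 to 1.36. Krt8 (0.578 ± 0.129 and 2.42 ± 0.270 FPKM in wild type and knockout), Cd68 (2.76 ± 0.128 and 3.98 ± 0.160) and Cdh5 (0.0533 ± 0.0316 and 0.437 ± 0.224) carried most of these differences, while Cdh1, Krt18, Ptprc, Itgam, Cd79a and Tek were lower in the knockout mean. Of these lists 1 of 7, 1 of 7 and 2 of 6 genes passed the filter on low counts, and in wild type Cldn4, Esrp1, Adgre1, Tyrobp and Kdr were at 0. Their part in the results was not tested. Knockout replicate 2 stood apart from replicates 1 and 3, with a chi-square of 28.6 and 26.5 per degree of freedom over genes, where other pairs within a group lay between 1.72 and 2.25.

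Nearly all of these genes were lower in the knockout. Of the 37, 34 had enough counts to be tested, and each of these lay above the filter's level of 0.567 CPM in all 6 libraries. In edgeR's quasi-likelihood test 32 of the 34 fell, which is 94.1%, where 29.2% of the 11972 genes tested fell and 59.6% changed in either direction. None rose: 0 of them were higher by the adjusted p, 0 at an unadjusted p under 0.05 and 0 in DESeq2, where 30.5% of all genes were called higher in edgeR. At least 2-fold falls were found in 21 of the 34, against 6.53% of all genes tested, and at least 2-fold rises in 0 of them, against 4.32%. The median log2 fold change was −1.15 over these genes and 0.0028 over all genes tested. Bulk RNA does not tell fewer expressing cells from less RNA per cell.

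**Figure D1:**
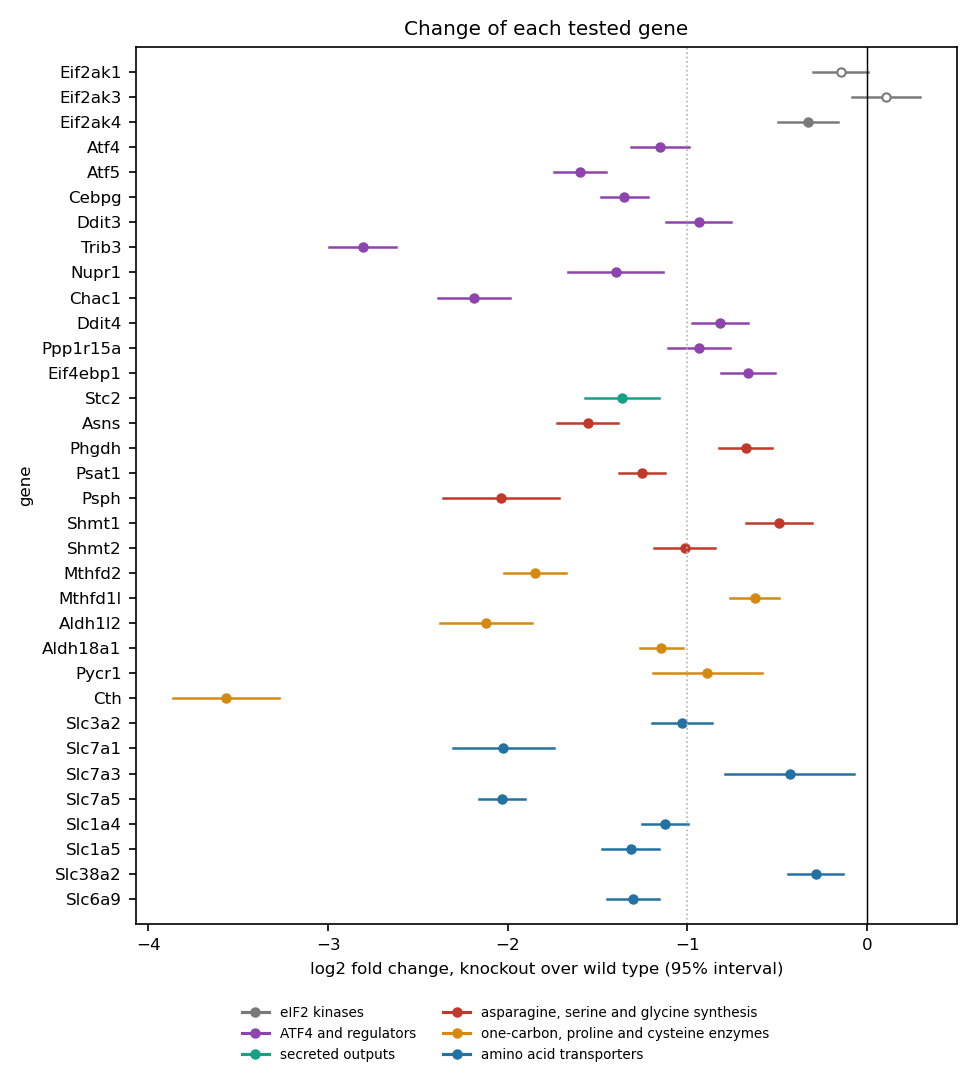
Log2 fold change of knockout over wild type (x axis) for each of the 34 tested genes (y axis), with 95% intervals from the fit. Filled points passed an adjusted p of 0.05; open points, Eif2ak1 and Eif2ak3, did not; the dotted line marks a 2-fold fall. Every filled point lies to the left of 0, from Slc38a2 (−0.29) to Cth (−3.57).

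In CPM, the count scaled by the TMM-adjusted size of the library, every knockout library lay below every wild-type library for 33 of the 34 genes. Over all genes tested, 33.5% were separated in that direction and 67.6% in either. The exception was Eif2ak3. Falls called by the test ran from 1.22-fold (Slc38a2) to 11.9-fold (Cth), with adjusted p from 2.44e-08 (Slc7a5) to 0.0417 (Slc7a3). Among the log2 fold changes of all genes tested, 25 of the 34 lay in the lowest 10% and 16 in the lowest 5%.

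Of the 3 eIF2 kinases chosen for the list, 1 fell (33.3%), near the 29.2% of all genes tested, and the others did not pass the test. Another eIF2 kinase gene, Eif2ak2, was counted with the sensors and feedback genes below and is named here outside the rule. It averaged 363 ± 9.45 CPM in wild type and 401 ± 26.9 in knockout (SD, n = 3 per group). Its groups overlapped and it did not pass (log2 fold change 0.14 ± 0.064, adjusted p = 0.0853, edgeR). Eif2ak3 encodes PERK, the kinase of the endoplasmic reticulum, and had 30.3, 31.6 and 27.2 CPM in wild-type replicates 1, 2 and 3 and 34.5, 29.9 and 31.4 CPM in knockout. These ranges overlapped, and the log2 fold change of 0.10 ± 0.084 (SE) did not pass (95% interval −0.09 to 0.29, adjusted p = 0.308, edgeR). Eif2ak1, the heme-regulated kinase HRI, averaged 58.9 ± 1.75 CPM over wild-type libraries and 53.2 ± 3.81 over knockout libraries (SD, n = 3 per group; adjusted p = 0.0908, edgeR). Without knockout replicate 2 the Eif2ak1 difference passed, at −0.20 on the log2 scale (adjusted p = 0.00107, edgeR). Eif2ak4, which encodes the uncharged-tRNA sensor GCN2, fell by 0.33 ± 0.074 on the log2 scale, from 166, 164 and 163 to 138, 117 and 138 CPM (adjusted p = 0.00434, edgeR).

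Atf4 itself fell 2.22-fold and was the most abundant of the 37 messengers per length (FPKM), although Slc38a2 had more counts. Wild-type replicates 1, 2 and 3 held 437, 422 and 432 FPKM, the deposited value scaled to gene length and library total, and knockout replicates 187, 217 and 182 FPKM. In CPM the means were 625 ± 11.7 and 281 ± 25.6 (SD, n = 3 per group), with −1.15 ± 0.072 as log2 fold change (adjusted p = 2.47e-06, edgeR). All 3 knockout libraries were low, and replicate 2 was the highest of them. The messenger level does not show how much ATF4 protein was made, which is set largely by translation.

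The other leucine-zipper genes among the 37, Atf5, Cebpg and Ddit3, fell with Atf4. Those outside the 37 were mixed and are given below. Atf5, a relative that is likewise translated under stress, had 344, 321 and 328 CPM in wild type and 107, 116 and 105 CPM in knockout. Cebpg, whose product dimerises with ATF4 on its target elements, went from 165, 155 and 165 to 64.7, 61.8 and 63.2 CPM. Ddit3, which encodes the stress factor CHOP, went from 75.7, 72.8 and 73.2 to 36.1, 43.4 and 36.3 CPM. The groups were far apart for each, with log2 fold changes of −1.60, −1.35 and −0.94 and adjusted p of 1.70e-07, 2.70e-07 and 1.39e-05 in edgeR.

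Feedback and effector genes held the largest falls among the regulators. Trib3, a pseudokinase that restrains ATF4 and AKT, stood at 91.1, 89.8 and 88.7 CPM in wild-type replicates 1, 2 and 3 and at 11.2, 13.7 and 13.6 CPM in knockout, 7.01-fold lower (log2 fold change −2.81 ± 0.081, adjusted p = 2.89e-08, edgeR). Chac1, which degrades glutathione, went from 72.5, 60.4 and 72.7 to 15.2, 15.2 and 14.7 CPM, 4.56-fold lower. The knockout values of both genes lay within a narrow range far under wild type. Nupr1, a small chromatin-associated stress protein, fell by 1.40 ± 0.116 on the log2 scale and was the most variable of these genes in knockout, at 26.5, 31.1 and 21.5 CPM against 73.1, 66.7 and 69.1 in wild type.

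Smaller falls were seen in genes that act on translation and growth. Ppp1r15a encodes GADD34, the stress-induced subunit that directs a phosphatase to eIF2, and fell by 0.94 ± 0.076 on the log2 scale. Ddit4, an inhibitor of mTORC1 also called REDD1, fell by 0.82 ± 0.068, and Eif4ebp1, the translation repressor 4E-BP1, by 0.66 ± 0.066. Their wild-type means were 97.6 ± 3.71, 82.7 ± 2.93 and 172 ± 5.58 CPM (SD, n = 3), and their knockout means 51.0 ± 4.74, 46.9 ± 3.39 and 109 ± 7.32 CPM. Per length, Eif4ebp1 was at 175 ± 5.55 FPKM in wild type and 111 ± 8.03 FPKM in knockout.

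**Figure D2:**
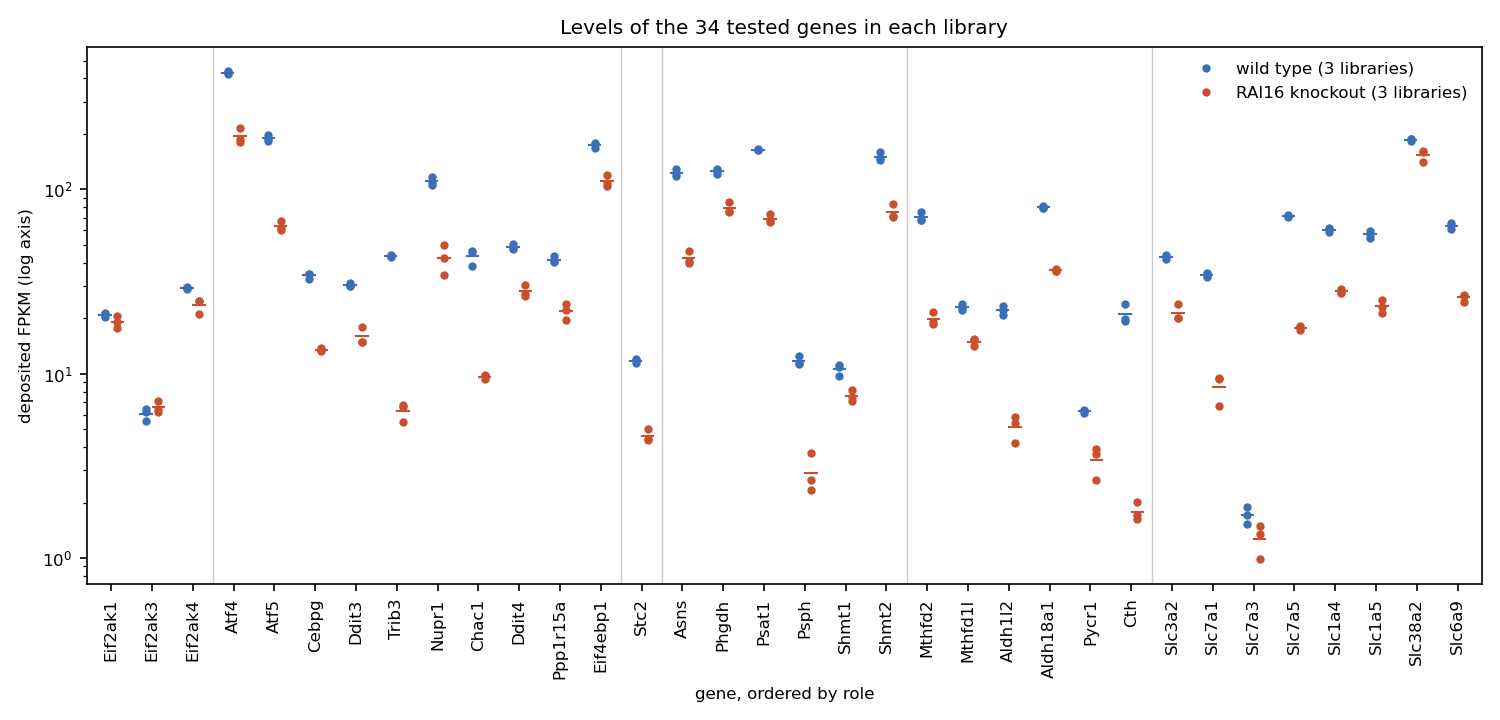
Deposited FPKM (y axis, log scale) of the 34 tested genes (x axis, by role; grey lines part the roles) in each of 3 wild-type libraries (blue) and 3 knockout libraries (red), with the group means as bars. For Eif2ak1 and Eif2ak3 the red and blue points overlap on this scale, and for the other genes every red point lies under the blue ones; Cth drops from 21.1 ± 2.57 to 1.79 ± 0.202 FPKM.

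Of the 3 secreted outputs of the response, 1 had enough counts to be tested. Stc2, the glycoprotein stanniocalcin 2, had 21.4, 20.6 and 21.7 CPM in wild type and 9.01, 7.90 and 7.83 CPM in knockout, a log2 fold change of −1.36 ± 0.090 (adjusted p = 3.35e-06, edgeR). Fgf21, a stress hormone, did not pass the filter: it had 6, 4 and 9 counts in wild type and 0, 0 and 1 in knockout, a ratio of 20.2 (95% exact binomial counting interval 3.21 to 838). Gdf15, another stress hormone, had 0 counts in wild type and 2, 0 and 1 in knockout, too few for a fold. The intervals cover counting error only, since PCR copies are not independent molecules.

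The 37 genes were also searched for the core of the C/EBP-ATF element, since many of them fell together. The core was TGATGNAA on either strand, where N is any base, in windows from 250 bases before to 50 after each gene start (RefSeq sequences, build GRCm38.p6). Of the 37 genes 31 matched an entry in the table; Eif4ebp1, Aldh1l2, Cth, Slc7a3, Slc7a5 and Slc1a5 had none. The core was in the windows of 7 of the 31 genes and in 7 of their 38 windows (18.4%), against 3.97% of all 32851 windows and 2.28% of 12203 windows of tested genes. Its form with C, TGATGCAA, which the wider core includes, was in 5 of the 38 windows (13.2%) and in 0.895% of all windows. Many of the 37 genes are known ATF4 targets, so these shares are a description and no test of them was made. The 5 matches that lie wholly before the gene start are shown because they place a form of the core before genes of different roles; the capitals mark the core, written on the gene's strand.
Chac1: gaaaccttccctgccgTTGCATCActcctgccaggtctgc
Nupr1: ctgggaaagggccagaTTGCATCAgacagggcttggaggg
Fgf21: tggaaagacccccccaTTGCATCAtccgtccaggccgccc
Asns: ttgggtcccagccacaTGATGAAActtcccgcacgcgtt
Pycr1: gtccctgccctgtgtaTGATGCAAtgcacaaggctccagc
These lie at chr2:119351033-119351072 (plus strand), chr7:126625557-126625596 (minus), chr7:45615606-45615645 (minus), chr6:7693210-7693248 (minus) and chr11:120643828-120643867 (minus). Chac1, Nupr1 and Fgf21 carry the core in reverse orientation, as TTGCATCA, at 193 to 186, 110 to 103 and 139 to 132 bases before the start. Asns carries TGATGAAA at 23 to 16 bases and Pycr1 TGATGCAA at 103 to 96 bases before it. Slc1a4 has TGATGCAA in reverse across its start and Trib3 TGATGTAA in reverse 15 to 22 bases into the transcript. A match describes letters in this window and does not show binding, and a window without one says nothing of the factor.

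Every tested enzyme of asparagine, serine and glycine synthesis fell, 6 of 6, where 29.2% of all genes tested fell. Asns, asparagine synthetase, had 309, 290.0 and 281 CPM in wild-type replicates 1, 2 and 3 and 96.0, 109 and 94.0 CPM in knockout, 2.94-fold lower (adjusted p = 5.09e-07, edgeR). Serine is made from a glycolytic intermediate in steps catalysed by Phgdh, Psat1 and Psph. Phgdh, the first enzyme, fell from 238, 241 and 228 to 140.1, 159 and 144 CPM. Psat1, the aminotransferase, fell from 410.3, 413 and 408 to 169, 182 and 167 CPM. Psph, the phosphatase that ends the pathway, fell from 38.6, 35.3 and 34.8 to 7.11, 11.2 and 8.11 CPM. No knockout library reached a wild-type library for any of them, which held for 33.5% of all genes tested. The log2 fold changes of Phgdh, Psat1 and Psph were −0.68 ± 0.065, −1.25 ± 0.057 and −2.04 ± 0.143. Psph was also the least abundant of this chain per length, at 11.8 ± 0.668 FPKM in wild type and 2.89 ± 0.719 FPKM in knockout (SD, n = 3 per group).

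The hydroxymethyltransferases, which pass the carbon of serine to folate, both fell. The mitochondrial enzyme gene Shmt2 went from 369, 342 and 335 to 165, 189 and 163 CPM, and the cytosolic Shmt1 from 34.2, 29.9 and 33.3 to 22.7, 24.6 and 21.8 CPM. Their log2 fold changes were −1.02 ± 0.075 and −0.49 ± 0.081 (adjusted p = 6.39e-06 and 7.54e-04, edgeR). Shmt2 was the more abundant per length in both groups, at 151 ± 7.70 against 10.6 ± 0.743 FPKM in wild type.

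Mitochondrial one-carbon enzymes fell as well. Mthfd2, which oxidises methylene-tetrahydrofolate, had 179.7, 162 and 163 CPM in wild type and 44.9, 50.9 and 44.3 CPM in knockout, 3.60-fold lower (adjusted p = 2.22e-07, edgeR). Aldh1l2, which oxidises formyl-tetrahydrofolate, went from 216, 205 and 194 to 53.2, 38.5 and 49.7 CPM, with knockout replicate 2 the lowest. Mthfd1l, which releases formate, went from 103 ± 3.68 to 66.7 ± 3.26 CPM (SD, n = 3 per group; log2 fold change −0.63 ± 0.061).

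The proline and cysteine enzymes held the largest fall of all 34 genes. Cth, cystathionine gamma-lyase, which makes cysteine, stood at 43.5, 35.9 and 34.9 CPM in wild-type replicates 1, 2 and 3 and at 2.93, 3.60 and 3.10 CPM in knockout, a log2 fold change of −3.57 ± 0.130 (adjusted p = 1.20e-07, edgeR). All 3 knockout libraries were close together and far under the lowest wild-type library. Cbs, the enzyme before Cth in transsulfuration, was barely present, with 1 count in each wild-type library and 3, 3 and 5 in knockout (ratio of wild type to knockout 0.289, 95% counting interval 0.0518 to 1.10), and was not tested. Aldh18a1, which starts proline synthesis from glutamate, fell from 283, 277 and 274 to 128, 124 and 125 CPM. Pycr1, which ends it, fell from 18.1, 18.0 and 17.5 to 7.49, 11.1 and 10.4 CPM.

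All 8 transporters fell, where 29.2% of all genes tested fell. Their log2 fold changes ran from −2.03 (Slc7a5) to −0.29 (Slc38a2). Slc7a5 (LAT1), the importer of leucine and other large neutral amino acids, had 253, 251 and 257 CPM in wild type and 62.5, 60.0 and 63.6 CPM in knockout, 4.09-fold lower (log2 fold change −2.03 ± 0.056, adjusted p = 2.44e-08, edgeR). Slc3a2 (4F2hc), the heavy chain that carries Slc7a5 to the membrane, went from 436, 416 and 429 to 197, 232 and 199 CPM, 2.04-fold lower. Slc7a1 (CAT1), the importer of arginine and lysine, went from 260.3, 247 and 258 to 70.1, 48.9 and 68.9 CPM, with replicate 2 the lowest of the knockout libraries. The groups did not overlap for any of these genes, and 33.5% of all genes tested were separated in that direction.

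Carriers of small neutral amino acids and glycine fell by intermediate amounts. Slc1a4 (ASCT1), an exchanger of serine and alanine, went from 238 ± 5.37 to 109 ± 3.65 CPM (SD, n = 3 per group). Slc1a5 (ASCT2), known for glutamine, went from 159 ± 6.94 to 63.9 ± 4.62 CPM, and the glycine transporter gene Slc6a9 from 249 ± 10.4 to 101 ± 5.27 CPM. Their log2 fold changes were −1.12 ± 0.056, −1.32 ± 0.070 and −1.30 ± 0.064, with adjusted p of 6.38e-07, 9.40e-07 and 5.85e-07 in edgeR.

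The smallest transporter changes were in Slc38a2 and Slc7a3. Slc38a2 (SNAT2), the most abundant transporter of the list, kept most of its level, at 863, 877 and 879 CPM in wild type and 749, 651 and 747 CPM in knockout (log2 fold change −0.29 ± 0.067, adjusted p = 0.00529, edgeR). Slc7a3 (CAT3), a scarce arginine carrier, had 8.32, 10.3 and 9.36 CPM in wild type and 8.03, 7.30 and 5.35 CPM in knockout. Its groups nearly touched, and its log2 fold change of −0.43 ± 0.159 passed narrowly (adjusted p = 0.0417, edgeR). Without wild-type replicate 2, wild-type replicate 3 or knockout replicate 3 it no longer passed (adjusted p = 0.143, 0.102 and 0.118, edgeR).

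Related genes outside the 37 were counted in the same way, beside the 29.2% of all genes tested that fell and the 30.5% that rose. Cytosolic aminoacyl-tRNA synthetases, which charge tRNA and include many known ATF4 targets, counted 14 falls (70%) and 3 rises (15%) among 20 tested (median log2 fold change −0.57). Eprs fell from 438 ± 6.05 to 189 ± 11.8 CPM, Tars from 301 ± 2.54 to 136 ± 4.41 and Nars from 424 ± 14.4 to 191 ± 9.25 (SD, n = 3 per group). The synthetase genes that rose, named after their values were seen, were Kars (0.63), Farsa (0.38) and Qars (0.34 on the log2 scale). Subunits of eIF2, its exchange factor eIF2B and eIF2 phosphatases counted 2 falls (20%) and 4 rises (40%) among 10 (median 0.14). In all 60% of this list was called, near the 59.6% of all genes. Ppp1r15b, the constitutive partner of the eIF2 phosphatase, fell by 1.12 ± 0.053, while Eif2b5 and the phosphatase gene Ppp1ca rose by 0.46 ± 0.074 and 0.44 ± 0.079 on the log2 scale.

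Sensors and feedback genes of the eIF2 kinases counted 3 falls and 2 rises among 8 (median −0.07), 62.5% called and so near the share of all genes. Sesn2, a leucine sensor and known ATF4 target, fell by 0.85 ± 0.061 on the log2 scale, and Hspa5, the chaperone BiP of the endoplasmic reticulum, rose by 0.50 ± 0.065. Oma1, the mitochondrial protease that acts upstream of HRI, rose by 0.39 ± 0.083. Other leucine-zipper genes counted 5 falls (38.5%) and 4 rises (30.8%) among 13 (median −0.02). Atf6, a sensor of the unfolded protein response, and Creb1 fell by 0.75 ± 0.103 and 0.70 ± 0.066, and Cebpd rose by 0.69 ± 0.102. Transporters outside the 37 counted 9 falls (50%) and 4 rises (22.2%) among 18 tested of 21 (median −0.27). The cystine importer gene Slc7a11, −4.07 on the log2 scale, the leucine carrier gene Slc43a2, −1.63, and the glutamate carrier gene Slc1a3, −1.20, were the largest falls named by rule.

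**Figure D3:**
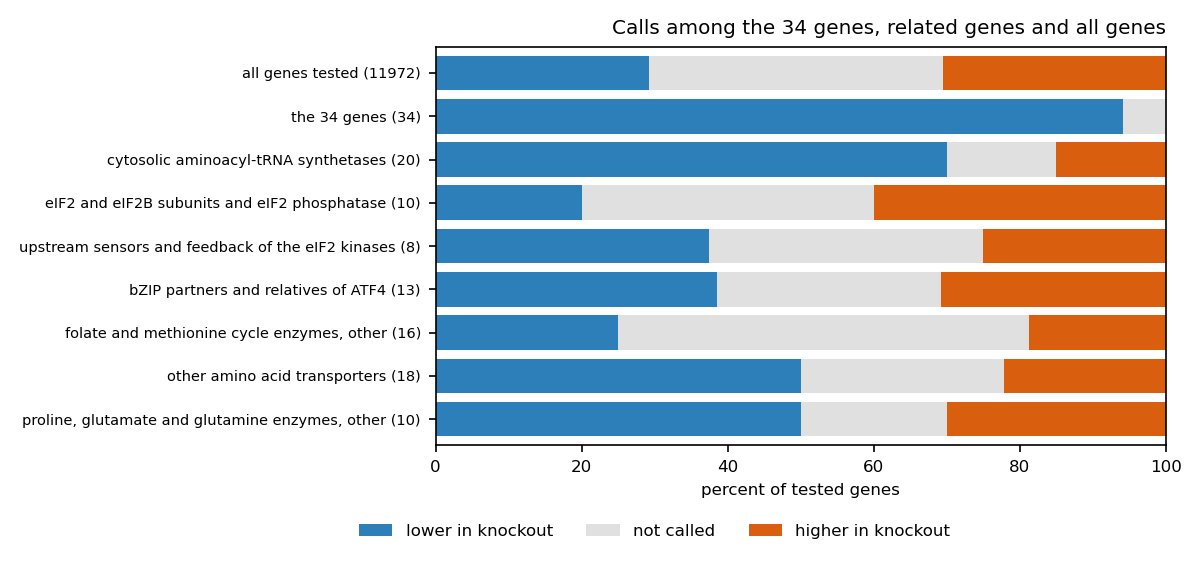
Percent of tested genes (x axis) called lower (blue), not called (grey) or higher (orange) in knockout at an adjusted p of 0.05, for all genes tested, the 34 genes and 7 lists of related genes (y axis, number tested in brackets). The 34 genes are 94.1% blue with no orange, and the tRNA synthetases are 70% blue, beside 29.2% of all genes.

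Each gene was also set beside the 10 nearest tested genes on either side (order from RefSeq, GRCm38.p6). The neighbours' median log2 fold change ran from −0.29 (Slc1a5) to 0.58 (Mthfd2). All 32 genes that fell lay below the median of their neighbours. That follows largely from their being called lower, so it is a description and no test. For 20 of them more neighbours rose than fell, for 9 more fell than rose, and 3 had equal numbers. Of all genes tested, 30.5% rose and 29.2% fell. Around Trib3 13 of 20 neighbours rose (median 0.36), and around Mthfd2 likewise 13 of 20. Chac1 (0.34) and Slc7a5 (0.44) also lay among genes that mostly rose. On the other side, 11 of 20 neighbours fell around Slc1a5 and 9 of 20 around Atf5 (median −0.20).

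**Figure D4:**
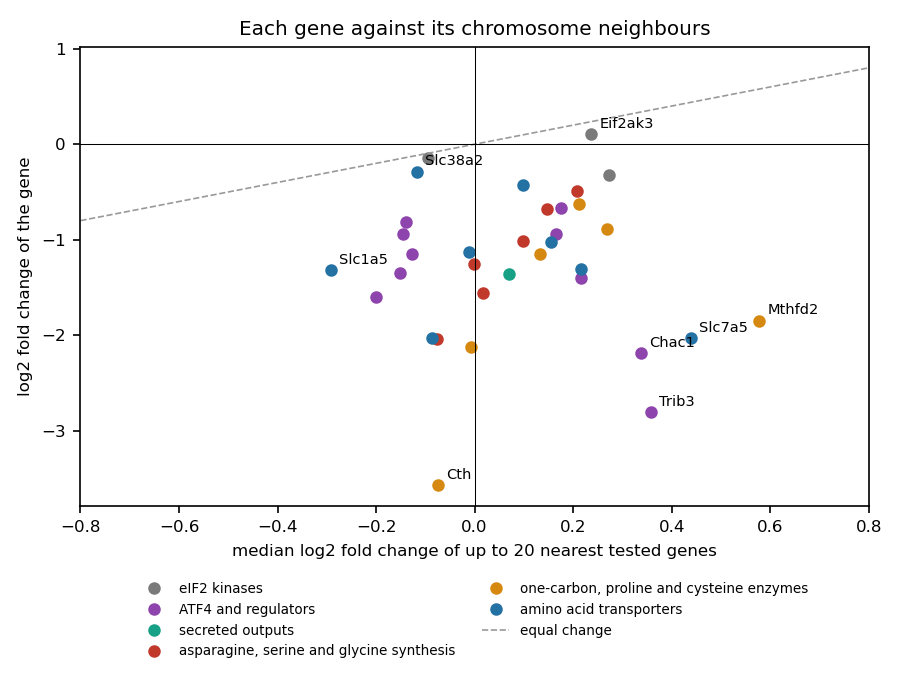
Log2 fold change of each of the 34 tested genes (y axis) against the median of up to 20 nearest tested genes on the chromosome (x axis), coloured by role; the dashed line marks equal change. The neighbours' medians stay between −0.29 and 0.58, while the genes themselves reach −3.57 (Cth) and −2.81 (Trib3).

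Knockout replicate 2 differed from replicates 1 and 3 among these genes in both directions. It was the highest knockout library for 22 of the 34 genes, the lowest for 10 and between the others for 2. The ratio of its CPM to the mean of the others ran from 0.704 (Slc7a1) to 1.48 (Psph). Gene length, derived from the deposited counts and FPKM and known up to a common factor, moved with this: the median was 2.35 kb where replicate 2 was highest and 4.68 kb where it was lowest. Over 10199 genes with a mean of at least 100 counts, the log2 ratio had a median of 0.236 in the shortest 25% and −0.265 in the longest 25%, and Spearman's rho with length was −0.746 across genes, which are not independent and share these libraries. Among the 34 genes rho was −0.52. The part of length in these differences was not tested. Without replicate 2, 33 of the 34 genes fell and the median log2 fold change was −1.18. In that setting 8586 of 12082 genes tested were called in either direction, 50.7% of them higher. With all libraries 7136 of 11972 were called, 51.1% of them higher.

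**Figure D5:**
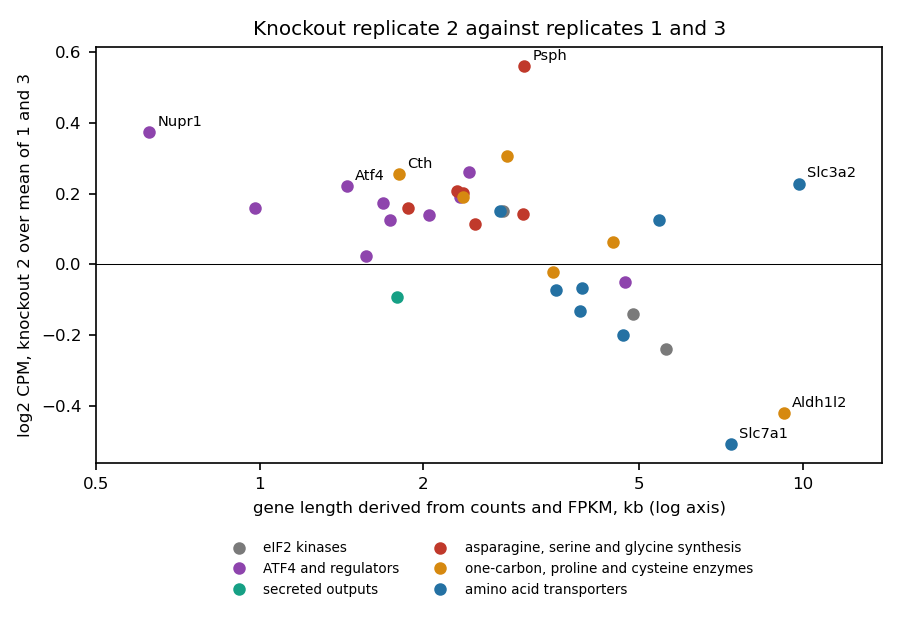
Log2 ratio of CPM in knockout replicate 2 to the mean of knockout replicates 1 and 3 (y axis) against derived gene length in kb (x axis, log scale) for the 34 tested genes, coloured by role. Slc7a1 and Aldh1l2, among the longest by derived length, lie lowest, and Psph lies highest. Slc3a2, with a derived length of 9.85 kb, lies above 0.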

How the data were processed

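The authors' deposited tables hold raw read counts and FPKM values per gene for 6 libraries of polyadenylated RNA (TruSeq Stranded mRNA, per the labels' protocols). Trimmomatic, HISAT2, Cufflinks, HTSeq and DESeq with build GRCm39 were used, per the submitters' processing notes. Versions, annotation and strand setting were not given in the sources used here. Without strand, reads of overlapping antisense genes cannot be told apart. The deposited FPKM equals the count over library total and 1 length per gene to within 8.04e-05%. From the counts, filterByExpr kept 11972 of 16000 genes, TMM scaled them, and the quasi-likelihood test of edgeR (version 4.0.16 under R 4.3.3) compared knockout with wild type without other terms, Benjamini-Hochberg adjusted over all genes tested; calls are at 0.05. Each SE is the log2 fold change over the square root of F, and 95% intervals come from it. Alternatives were other scalings, no filter, DESeq2 (1.42.0), a replicate block and each library left out. The members and lists were chosen with earlier results of these data known. All 37 members are accounted for; the rule names at most 3 genes from each other list, those with the largest called changes with at least 5 CPM and no overlap, and genes named outside it are marked as such.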

Additional observations from a re-analysis of the deposited data

How the results depend on the processing

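Across 11 alternatives no tested gene changed direction, and 32 of the 34 kept their side of the threshold in all of them; the exceptions were Eif2ak1 and Slc7a3, given above. The number that fell was 32 with DESeq2's size factors in edgeR and with library totals alone, and 33 with no filter and with DESeq2. No filter and DESeq2 both tested more genes and added Fgf21. In each of these settings 0 rose. Of all genes, 7129 of 11972, 7155 of 11972, 7223 of 16000 and 6842 of 13504 were called in these settings, in that order. Between 49.6% and 52.4% of those called were higher. Leaving out 1 library gave 31 to 33 falls, a median log2 fold change from −1.18 to −1.13, and 6048 to 8586 genes called of all tested, the last without knockout replicate 2. The replicate numbers did not pair the samples: deviations of same-numbered libraries correlated at −0.0725, −0.0938 and 0.0221, and not every library correlated best with its own number. With the replicate block 31 of the 34 genes fell and 6692 genes were called of all tested, against 7136 without it; Slc7a3 was then at an adjusted p of 0.0501 (edgeR). Across the alternatives the median log2 fold change of all genes lay between −0.0083 and 0.0142, beside 0.0028 in the main fit. Depth limits Gdf15, Fgf21 and Cbs, which held at most 20 counts in all.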

Other observations

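Other genes of amino acid metabolism were mixed. Enzymes of proline, glutamate and glutamine metabolism outside the 37 counted 5 falls (50%) and 3 rises (30%) among 10 tested, where 29.2% of all genes fell and 30.5% rose. The glutamate-pyruvate transaminase gene Gpt2 fell from 130.0 ± 6.41 to 38.1 ± 1.22 CPM and the branched-chain transaminase gene Bcat1 from 249 ± 14.6 to 81.9 ± 2.89 CPM (SD, n = 3 each). Glutamate dehydrogenase, Glud1, rose from 239 ± 5.45 to 498 ± 13.4 CPM. Of 16 tested folate and methionine cycle enzymes outside the 37, 4 fell and 3 rose, 43.8% called against 59.6% of all genes, with a median log2 fold change of 0.03. The methionine synthase gene Mtr fell by 0.82 ± 0.152, and Ahcy and the glycine cleavage gene Gcsh rose by 0.74 ± 0.066 and 0.61 ± 0.082 on the log2 scale.

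Ratios between partner genes were compared within libraries. For 6 FPKM ratios, chosen after the values were seen, the groups did not overlap in 5. Of single genes tested, 67.6% were separated in CPM in either direction. Each of the 5 had a two-sided exact permutation p of 0.1, the smallest that 3 against 3 libraries allow (0.12 adjusted over the 6). As the pairs were picked from these values, the p-values are a description and no test of the ratios. Slc7a5 over Slc3a2 was 1.63, 1.70 and 1.68 in wild type and 0.890, 0.726 and 0.896 in knockout. Psph over Phgdh was 0.0938 ± 0.00496 and 0.0362 ± 0.00632 (SD, n = 3 each), and Psat1 over Phgdh 1.31 ± 0.0326 and 0.879 ± 0.0227. Mthfd2 over Mthfd1l was 3.09 ± 0.0995 and 1.32 ± 0.0929, and Shmt2 over Shmt1 14.3 ± 0.917 and 9.91 ± 0.286. Pycr1 over Aldh18a1 overlapped between groups, at 0.0782 ± 0.000847 and 0.0936 ± 0.0197 (exact permutation p = 0.4).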
